A study of Homo sapiens with 6 samples.

Results

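The DEAD and DEAH box helicase genes are the protein-coding genes of chromosomes 1 to 22 and X whose symbol is DDX or DHX followed by a number, with or without further letters. The rule uses names alone and found 53 genes among 19970. By role, 12 act in splicing, 16 in ribosome biogenesis and 25 in other steps of RNA or DNA metabolism. GABPA peaks near these genes were compared in A-375, an established line of human melanoma cells, with 1 ChIP library per condition. The parental cells carried no edit. ROSA26, often chosen as a safe site for editing, was knocked out in the other control. In the third condition exon 2 of GABPB1, the gene of the B1 subunit of GABP, had been knocked out and TERT then knocked in. Per the labels' protocols, knockout cells were sorted and grown as clones, so each edited library is taken to stand for 1 clone, and knockout, knock-in and clone cannot be told apart. All 3 ChIP libraries used the same GABPA antibody, and no difference between conditions has a replicate check.

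DEAD and DEAH box proteins are ATPases that unwind short RNA duplexes or strip proteins from RNA, and they are named after the amino acids of a conserved ATPase motif. Successive helicases drive the spliceosome through assembly, catalysis, mRNA release and disassembly, and many nucleolar members fold and release the RNAs of the maturing ribosomal subunits. GABP is an ETS family factor whose GABPA subunit contacts DNA at the GGAA core of the ETS word, and whose B subunit carries the activation domain and joins GABPA units together.

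The authors listed 3024 peaks for parental cells, 3857 for the ROSA26 control and 1660 for the B1 knockout, with medians of 132, 122 and 82 reads at the summit. Relative to the parental library the knockout library had 64.0% of the background reads, and relative to the ROSA26 library 69.3%. A site of the same enrichment thus had fewer reads in the knockout library. None of 8 melanocyte marker genes had a peak in any list, but peak lists do not measure expression and cannot check the cell type. Absence from a list means only that no peak passed the caller's threshold, not that GABPA was absent.

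Promoter sequences are shown for the helicase genes on which the comparisons turn, those with the highest parental fold that had a knockout peak and those that had none. Each is the stretch of 250 bases before the RefSeq gene start (GRCh38.p14, the coordinates of hg38), written 5′ to 3′ on the gene's strand. Capitals mark the 7-letter ETS word CCGGAAG or its reverse complement, and the shorter word CGGAA, which lies inside the longer one, or its reverse complement. The first 3 are splicing genes with a peak in all 3 lists.
DHX8, chr17:43483725-43483974, plus strand: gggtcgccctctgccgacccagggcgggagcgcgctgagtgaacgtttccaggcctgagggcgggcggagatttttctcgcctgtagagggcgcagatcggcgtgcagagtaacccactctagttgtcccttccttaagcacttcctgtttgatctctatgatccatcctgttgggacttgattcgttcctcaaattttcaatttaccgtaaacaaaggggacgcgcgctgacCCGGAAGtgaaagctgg
DHX38, chr16:72093597-72093846, plus strand: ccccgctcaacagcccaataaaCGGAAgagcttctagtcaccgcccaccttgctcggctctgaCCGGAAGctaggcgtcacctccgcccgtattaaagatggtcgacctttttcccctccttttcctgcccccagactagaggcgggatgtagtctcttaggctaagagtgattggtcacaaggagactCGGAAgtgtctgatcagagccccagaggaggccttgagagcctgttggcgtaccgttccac
DDX39B, chr6:31542004-31542253, minus strand: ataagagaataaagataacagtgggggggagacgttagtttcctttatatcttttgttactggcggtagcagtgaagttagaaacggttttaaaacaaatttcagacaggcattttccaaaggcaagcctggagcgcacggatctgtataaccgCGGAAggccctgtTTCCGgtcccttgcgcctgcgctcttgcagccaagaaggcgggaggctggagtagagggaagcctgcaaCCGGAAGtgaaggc
The next 3 are ribosome biogenesis genes with a peak in all 3 lists, the strongest first.
DDX55, chr12:123601849-123602098, plus strand: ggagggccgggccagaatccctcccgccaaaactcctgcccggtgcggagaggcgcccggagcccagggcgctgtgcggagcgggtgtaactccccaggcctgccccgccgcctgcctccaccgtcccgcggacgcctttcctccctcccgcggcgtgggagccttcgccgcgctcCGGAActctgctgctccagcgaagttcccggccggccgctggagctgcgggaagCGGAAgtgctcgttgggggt
DDX21, chr10:68955920-68956169, plus strand: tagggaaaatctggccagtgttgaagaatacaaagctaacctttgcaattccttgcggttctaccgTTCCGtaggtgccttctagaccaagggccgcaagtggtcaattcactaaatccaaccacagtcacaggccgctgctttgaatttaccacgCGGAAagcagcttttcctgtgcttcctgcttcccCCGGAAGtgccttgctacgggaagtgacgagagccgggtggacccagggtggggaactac
DDX56, chr7:44573909-44574158, minus strand: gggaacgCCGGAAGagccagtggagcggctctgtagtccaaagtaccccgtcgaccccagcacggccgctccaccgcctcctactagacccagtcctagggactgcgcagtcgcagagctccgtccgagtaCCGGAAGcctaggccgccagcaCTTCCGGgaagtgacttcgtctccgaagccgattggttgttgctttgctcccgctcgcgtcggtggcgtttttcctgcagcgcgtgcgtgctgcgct
The last 3 had a peak in each control and none in the knockout list.
DDX5, chr17:64506639-64506888, minus strand: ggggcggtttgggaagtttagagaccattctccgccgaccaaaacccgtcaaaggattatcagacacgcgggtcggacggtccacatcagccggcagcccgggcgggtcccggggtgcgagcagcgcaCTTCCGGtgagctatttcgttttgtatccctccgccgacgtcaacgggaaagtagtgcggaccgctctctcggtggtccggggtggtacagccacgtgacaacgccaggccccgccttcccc
DHX34, chr19:47349065-47349314, plus strand: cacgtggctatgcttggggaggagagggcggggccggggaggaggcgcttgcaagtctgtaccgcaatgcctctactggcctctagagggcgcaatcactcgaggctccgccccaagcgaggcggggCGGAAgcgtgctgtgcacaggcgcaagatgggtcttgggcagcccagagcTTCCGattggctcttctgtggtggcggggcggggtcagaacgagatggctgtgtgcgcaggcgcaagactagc
DDX31, chr9:132669984-132670233, minus strand: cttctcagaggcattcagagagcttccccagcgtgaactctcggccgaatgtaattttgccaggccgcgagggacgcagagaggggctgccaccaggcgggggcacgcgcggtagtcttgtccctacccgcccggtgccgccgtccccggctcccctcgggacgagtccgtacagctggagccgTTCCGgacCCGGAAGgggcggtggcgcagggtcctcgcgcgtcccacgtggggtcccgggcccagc

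Helicase genes carried GABPA peaks often. A gene was counted when 1 of its 2 span ends had a peak summit at most 1 kb away. By this measure 25 of 53 helicase genes had a parental peak (47.2%, exact 95% interval 33.3 to 61.4), against 15.5% of all protein-coding genes. In the ROSA26 list 31 had a peak (58.5%, 44.1 to 71.9), against 18.5%, and in the knockout list 22 did (41.5%, 28.1 to 55.9), against 9.31%. In each list the interval of the helicase genes lies above the share of all genes. All 25 genes with a parental peak also had a ROSA26 peak, and all 22 with a knockout peak had a peak in both controls. The 6 further ROSA26 genes were in that list alone, as were 3.12% of all genes, and 22 helicase genes (41.5%) were in no list, against 81.4% of all genes.

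**Figure D1:**
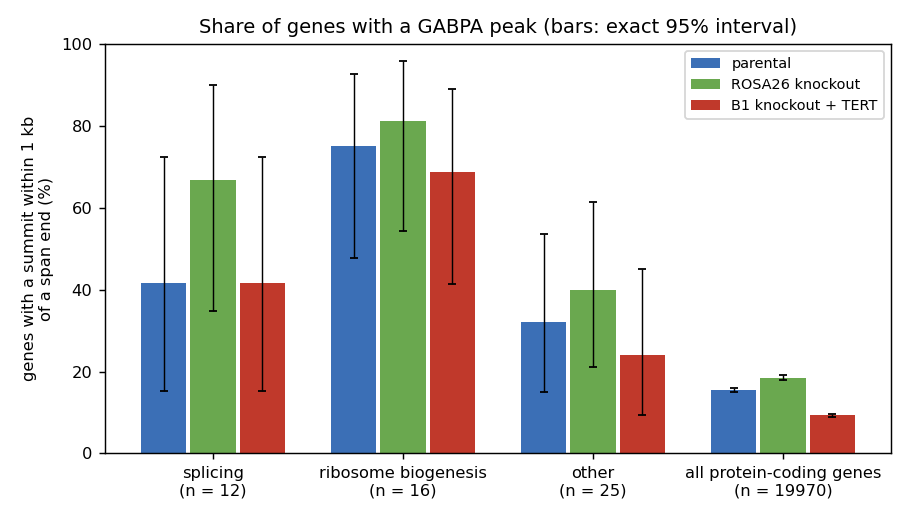
Share of genes with a GABPA summit within 1 kb of a span end, in percent, for helicase genes by role and for all protein-coding genes, with 1 bar per library and exact 95% intervals over genes as error bars. Ribosome biogenesis helicases stand highest, with 75, 81.3 and 68.8% in the parental, ROSA26 and knockout lists.

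Of the 16 ribosome biogenesis helicases, 12 were marked in the parental list, 13 in the ROSA26 list and 11 in the knockout list. Of the 12 splicing helicases the counts were 5, 8 and 5, and of the 25 others 8, 10 and 6. The parental shares were 75% (47.6 to 92.7), 41.7% (15.2 to 72.3) and 32.0% (14.95 to 53.5), and their intervals overlap. Against the 15.5% of all genes in the parental list, the interval of ribosome biogenesis lies above, whereas those of splicing and of the others contain it. The roles were chosen with earlier results of these data known, which the intervals do not cover. In the ROSA26 list (18.5% of all genes) the intervals were 54.4 to 95.95 for ribosome biogenesis, 34.9 to 90.1 for splicing and 21.1 to 61.3 for the others. In the knockout list (9.31% of all genes) they were 41.3 to 89.0, 15.2 to 72.3 and 9.36 to 45.1, the last with its lower bound next to the share of all genes. DDX genes (18 of 37 parental) and DHX genes (7 of 16) were marked at shares of 48.6 and 43.8%.

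Genes whose ends lie near those of a neighbour can share a peak with it, and 27 of the 53 helicase genes (50.9%) had another gene's end within 1 kb, against 28.6% of all genes. Among the 26 helicase genes with no such neighbour, 13 had a parental peak (50%, 29.9 to 70.1), 15 a ROSA26 and 12 a knockout peak. The corresponding shares of all genes without a neighbour were 10.3, 12.6 and 5.78%. Among the 27 with a neighbour, 12, 16 and 10 had a peak, and the shares of all such genes were 28.5, 33.1 and 18.1%. With a neighbour the parental interval of the helicase genes, 25.5 to 64.7, contains the share of all such genes, and those of the ROSA26 (38.8 to 77.6) and knockout list (19.4 to 57.6) lie above it. The helicase shares with a neighbour were 44.4, 59.3 and 37.0%, and those without one 50, 57.7 and 46.2%.

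The 5 splicing helicases with a peak in both controls all had a knockout peak as well. The exact interval of this share, 47.8 to 100%, contains the 60.4% of all genes in both controls. DHX8 (chromosome 17, 43483975 to 43544799), which releases the spliced mRNA from the spliceosome, had the strongest peak of this role. The authors' fold enrichment, the value used for all peaks here, was 12.2 (parental), 15.1 (ROSA26) and 7.93 (knockout). The parental summit lay 33 bp upstream of the gene start. DHX38 (chromosome 16, 72093847 to 72112912), which remodels the spliceosome between its catalytic steps, had folds of 9.34, 12.8 and 5.17 in the same order. That summit lay 158 bp upstream of DHX38 and 689 bp from an end of TXNL4B in the parental list. DDX39B (chromosome 6, 31530226 to 31542003) acts in early spliceosome assembly and mRNA export, and its folds were 8.16, 9.89 and 4.54.

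DDX46, which acts with the branch-site snRNP, had folds of 6.64, 10.96 and 2.96 in the parental, ROSA26 and knockout lists, and its knockout peak ranked 1617 of 1660 by −log10 p. DDX42, a helicase associated with the SF3b complex, had 5.87, 8.74 and 6.95, with its parental summit 19 bp inside the span and 222 bp from an end of CCDC47. Of the remaining splicing helicases, DDX23, which acts in spliceosome activation, was listed in ROSA26 alone (fold 3.63). The same held for DDX20, a subunit of the SMN complex that assembles snRNPs (3.16, with INKA2 nearer to the summit), and for DHX16, which readies the spliceosome for catalysis (3.02). DDX41, DHX15, DHX35 and DDX39A had no peak in any list.

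Ribosome biogenesis helicases held the strongest peaks of the family. DDX55 (chromosome 12, 123602099 to 123620943), a helicase of large subunit maturation, had folds of 17.8 (parental), 18.2 (ROSA26) and 18.7 (knockout). Its summits held 359, 403 and 262 reads and ranked 53 of 3024, 54 of 3857 and 16 of 1660 by −log10 p. No other helicase gene ranked as high in any of the 3 lists. DDX21 (chromosome 10, 68956170 to 68985068), a nucleolar helicase that links rRNA transcription and processing, had folds of 14.7, 18.9 and 5.00 and summits of 242, 286 and 91 reads. DDX56 (chromosome 7, 44565804 to 44573908), another factor of the large subunit, had folds of 9.91, 12.8 and 6.47. For DDX55 and DDX21, both among the strongest helicase peaks in the controls, the knockout peaks thus stood far apart in their own list, at rank 16 and rank 859.

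The other ribosome biogenesis helicases in all 3 lists ran from moderate to weak. DDX18, a large subunit factor, had folds of 9.06 (parental), 12.1 (ROSA26) and 9.51 (knockout). DDX49 had 8.70, 14.25 and 4.75, and its parental summit lay 147 bp from COPE and 181 bp from DDX49. The knockout summit was nearer to DDX49 (59 bp) than to COPE (269 bp). DDX47, a factor of the small subunit, had 8.58, 10.6 and 3.39, with 43 reads at the knockout summit. DDX27, a large subunit factor, had 8.41, 7.97 and 4.0003, and its summit in the parental list lay 2 bp from the start. DDX24 (7.31, 9.92 and 4.85, shared with IFI27L1) and DDX50 (7.25, 8.08 and 4.85) followed. DHX33, known for a part in rRNA synthesis, had 4.31, 4.07 and 3.65. DDX52, a small subunit factor, had 3.49, 5.83 and 4.50, and in all 3 lists the summit lay nearer to SYNRG (43 bp in the parental list) than to DDX52 (278 bp). These 2 genes were the weakest parental peaks of the family that had a knockout peak. When each summit was counted for its nearest gene end alone, DDX52 had no peak in any list. DDX52 is not in the promoter table used, so which of its ends is the start was not determined.

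DDX31 was the 1 ribosome biogenesis helicase with a peak in both controls and none in the knockout list. Its parental and ROSA26 folds were 3.31 and 3.76, and its parental summit lay 8 bp from GTF3C4 and 60 bp from DDX31. The ROSA26 summit was nearer to DDX31 (14 bp) than to GTF3C4 (38 bp). DDX10 was listed in ROSA26 alone (fold 2.96). DDX51, DDX54 and DHX37 had no peak in any list.

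Among the other helicases the peaks belonged to genes of several RNA processes. DHX30 (chromosome 3, 47803138 to 47850193), which acts in mitochondrial RNA granules and mitochondrial ribosome assembly, had folds of 11.5 (parental), 14.5 (ROSA26) and 7.59 (knockout). DHX36, which resolves G-quadruplexes, had 8.97, 10.2 and 7.48. DDX1, a member of the tRNA ligase complex, had 8.87, 11.8 and 7.64. DHX57, a less studied member whose summit lay 21 bp from the ends of both DHX57 and MORN2 in the parental list, had 8.83, 10.02 and 6.84. DDX19A, a helicase of mRNA export, had 7.05, 6.63 and 6.27. DDX11, a DNA helicase of sister chromatid cohesion, had 8.30, 7.94 and 3.85, with its parental summit 262 bp inside the gene. DDX11 has near-identical copies elsewhere in the genome, and how reads shared with them were placed is not given in the sources used here.

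DDX5 and DHX34 were listed in the controls and not in the knockout. DDX5, a co-regulator of transcription and splicing, had parental and ROSA26 folds of 5.72 and 5.19, and its parental summit lay 83 bp from the end of DDX5 and 21 bp from that of CEP95. DHX34, which takes part in nonsense-mediated decay, had 4.01 and 5.32. DDX25, a testis helicase that shares its peak with PUS3 (fold 3.76, with PUS3 nearer to the summit), and DDX59 (2.21) were in the ROSA26 list alone. No peak was listed near DHX9, DDX17, DDX3X, DDX6, DHX29, DDX19B, DDX28, DHX32, DHX40, the germline genes DDX4, DDX43 and DDX53, or the antiviral genes DHX58, DDX60 and DDX60L.

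**Figure D2:**
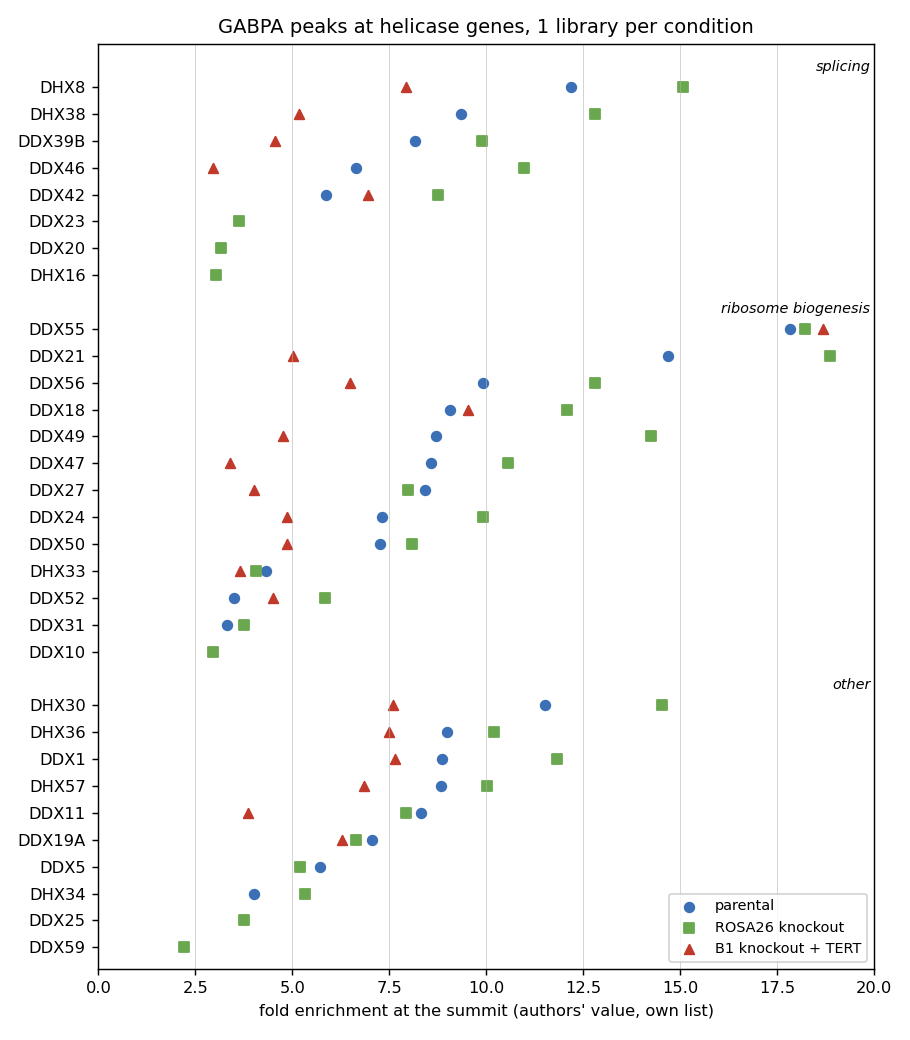
Fold enrichment at the summit (the authors' value) for the 31 helicase genes with a peak in at least 1 list, ordered by role and parental fold; each point is 1 library, and a missing point is a gene without a listed peak. Among helicase genes DDX55 has the highest fold of the parental list (17.8) and of the knockout list (18.7), and DDX21 that of the ROSA26 list (18.9).

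Closely related helicases did not always share their marking. DDX19A had a peak in all 3 lists, and its neighbour and paralog DDX19B had none. DDX39B and DDX39A differed in the same way. DDX5 was marked in both controls while DDX17 was in no list. The summit counted for DDX5 lay nearer to CEP95, at 21 against 83 bp in the parental and 29 against 75 bp in the ROSA26 list. The adjacent paralogs DDX21 and DDX50 each had a separate peak, with summits 61 and 58 bp upstream of their starts in the parental list. DDX60 and DDX60L, also neighbours, had none.

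Most summits lay near gene starts, as they did over all genes. Of the 21 helicase genes in both controls with a RefSeq promoter in the table used, 19 had the parental summit within 200 bp of the start and 16 within 100 bp, against 72.8 and 57% of all 2651 genes with a parental peak and a promoter. Upstream of the start lay 19 of these summits, and those of DDX11 and DHX34 lay downstream. The interval at 200 bp, 69.6 to 98.8%, contains the share of all genes. In the ROSA26 list 24 of 27 were within 200 bp and 21 within 100 bp, against 71.3 and 55.8% of all genes. In the knockout list these were 15 and 14 of 18, against 75.7 and 61.3%. The distance to the nearer span end was at most 278 bp in the parental (DDX52), 387 bp in the ROSA26 (DDX20) and 361 bp in the knockout list (DDX52). The nearest summits outside the limit of 1 kb were 9750 bp from DHX16, 10485 bp from DHX35 and 11299 bp from DHX40, in the same order. None of the 22 unmarked genes had a summit anywhere inside its span. DHX58, DDX18, DDX49, DHX33 and DDX52 are not in the promoter table.

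ETS words were frequent in the marked helicase promoters. The word CCGGAAG was searched on both strands of a window from 250 bases before to 50 after the start, and 14.2% of all 15812 windows held it. Of the 21 helicase genes in both controls, 18 had it (85.7%, 63.7 to 97.0), against 52.6% (50.7 to 54.5) of all 2624 such genes. Where the parental summit itself lay inside the window, the counts were 17 of 19 helicase genes (89.5%, 66.9 to 98.7) and 65.9% of all 1935 genes. The longer CCGGAAGT was in 10 of the 21 windows (47.6%, 25.7 to 70.2), against 6.2% of all windows. The 29.9% of windows of all genes in both controls that held it lies inside this interval. The shorter CCGGAAG was in 1 of 6 helicase genes in ROSA26 alone (DHX16). Of 21 helicase genes in no list, 1 held CCGGAAG (DHX37), where 5.63% of all genes in no list did. A match is one of letters and not a measured site. Median GC content was 61.3% in the windows of the 21 genes and 62.7% over all windows.

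The summit lay close to the word in most of these promoters. In the 18 genes the nearest match was at a median of 14 bp from the parental summit, with a range of 1 to 285 bp, and 16 lay within 50 bp (88.9%, 65.3 to 98.6). Over all 1380 genes in both controls with a match the median was 20 bp and 77.5% lay within 50 bp, a share inside the helicase interval. The single match of DDX1 was centred 1 bp from the parental summit, that of DDX21 4 bp and that of DDX31 5 bp. DDX56 had 3 matches, those at 119 and 97 bp upstream lying on either side of the parental summit, and DDX27 had 2 overlapping matches on opposite strands. DHX34 has its match 10 bp downstream of the start, outside the printed stretch. The exceptions were DDX42 (285 bp) and DHX30 (142 bp). The parental summit of DDX42 lay 351 bp upstream of the RefSeq gene start, outside the searched window. The sequence at that summit was thus not searched, and a nearer match there would not have been found.

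The strongest helicase peak had no copy of the longer word. In the printed promoter of DDX55 the shorter word CGGAA occurs 2 times, and CCGGAAG does not occur. DDX24 and DDX11 were the other genes in both controls without it. The parental summit of DDX11 lay 262 bp downstream of the start, outside the searched window, so the sequence at that summit was not searched. CGGAA was in all 21 windows, but also in 43.1% of all windows and 85.02% of those of genes in both controls. CCGGAAG was present in all 3 promoters of genes without a knockout peak (DDX5, DHX34 and DDX31), so its presence did not separate them from the 18 genes in all 3 lists, of which 15 had it.

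**Figure D3:**
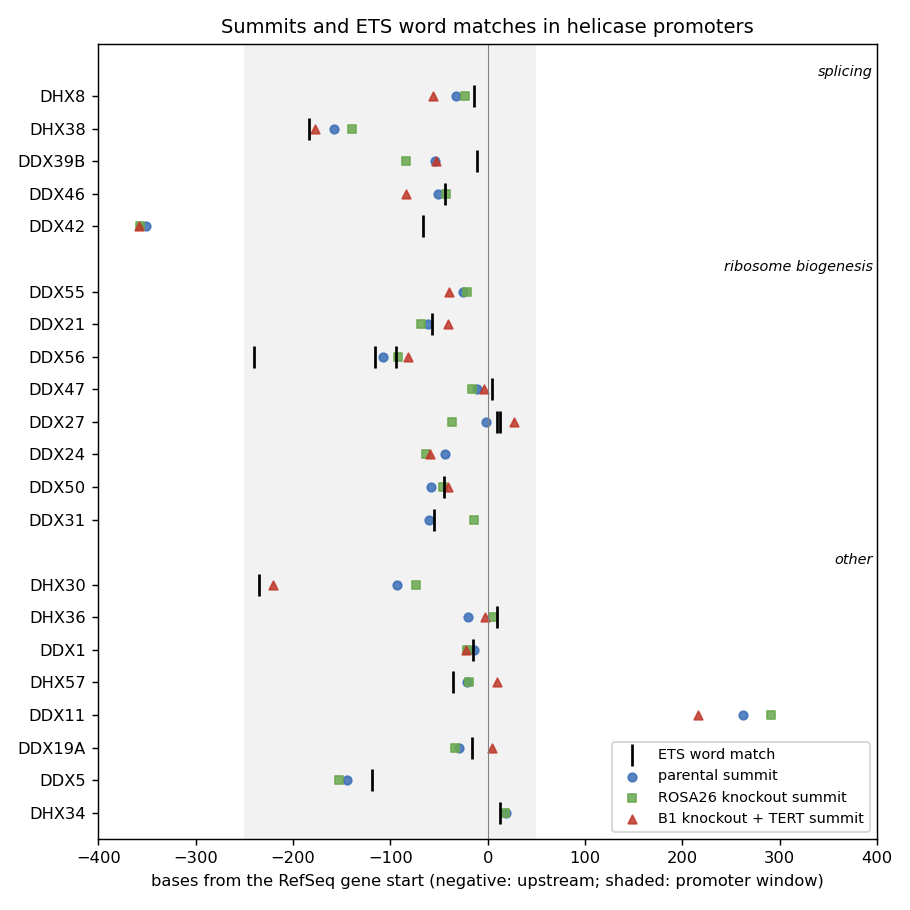
Position of the GABPA summits (points, 1 per library) and of the 7-letter ETS word (black ticks) relative to the RefSeq gene start, in bases, for the 21 helicase genes in both controls with a promoter in the table; the shaded band is the searched window. Most summits of the 3 libraries fall beside a tick upstream of the start, while DDX55, DDX24 and DDX11 have no tick. The summits of DDX11 and DDX42 lie outside the band, where no word was searched.

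Most helicase genes marked in both controls were also marked in the knockout. Of 25 genes, 22 had a knockout peak (88.0%, 68.8 to 97.5), against 60.4% of all 3062 genes in both controls. By role these were 5 of 5 splicing (47.8 to 100), 11 of 12 ribosome biogenesis (61.5 to 99.8) and 6 of 8 other helicases (34.9 to 96.8). The intervals of splicing and of the others contain the 60.4% of all genes, and the lower bound of ribosome biogenesis lies next to it. The median parental fold of the 25 was 8.41, against 7.08 over all genes in both controls, so the helicase median was also the higher of the 2. Genes in both controls were divided into 4 equal bins of parental fold, and from the weakest bin to the strongest 8.36, 48.2, 87.3 and 97.8% of all genes had a knockout peak. The helicase counts were 2 of 4, 3 of 4, 13 of 13 and 4 of 4. Weighted by how the helicase genes fall into the bins, the share over all genes was 70.1%, which lies inside the interval of the helicase genes.

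Some of the 22 knockout peaks were weak. With a limit of 10 on −log10 q in every list, 18 of the 25 had a knockout peak (72.0%, against 58.1% of all genes), and DDX11, DDX46, DDX47 and DHX33 were no longer among them. The 2 genes kept in the weakest bin were DHX33 and DDX52, the latter with its summits nearer to SYNRG. In that bin DHX34 and DDX31 were not kept, and in the next bin DDX5 was not kept, while DDX19A, DDX42 and DDX46 were.

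**Figure D4:**
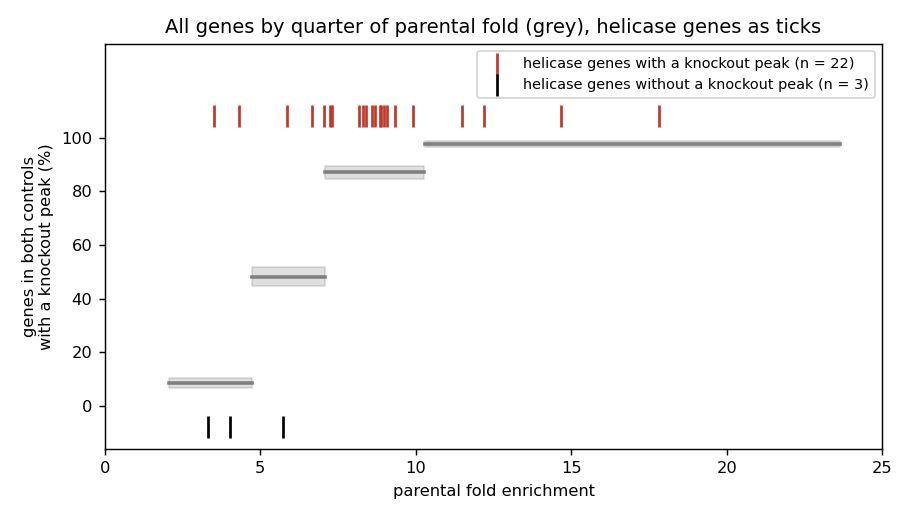
Share of all genes in both controls that had a knockout peak, in percent, by bin of parental fold (grey lines, with exact 95% intervals as bands); ticks outside the percent scale, where height has no meaning, give the parental folds of the helicase genes with (red ticks, n = 22) and without (black ticks, n = 3) a knockout peak. The 3 genes without a knockout peak have parental folds of 3.31 to 5.72.

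To set the libraries side by side, the pileup and background of each control summit were reduced to the background of the knockout library and −log10 p was computed again. The 2 controls differed from each other on this scale. Taken gene by gene, the ROSA26 value was a median of 142% of the parental one over the 22 genes. The knockout value lay below both controls at 20 of 22 helicase genes, where 90.6% of all 1850 genes in all 3 lists did. By the same gene-by-gene ratio, the knockout value was a median of 54.1% of the scaled parental one for helicase genes and 56.9% for all genes.

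Single helicase genes spread widely around this median. At DDX47 the scaled parental and ROSA26 values were 67.3 and 103, and the knockout value was 10.9, which is 16.2% of the parental one. At DDX46 they were 46.6, 86.0 and 9.92, and at DDX11 48.2, 58.8 and 12.1. At DDX21 the 3 values were 115, 166 and 33.0. In each of these genes both controls lay above the knockout. At DDX55 the values were 186, 227 and 219, so that the knockout lay between the controls. DDX52 (13.1, 30.02 and 18.2), with its summits nearer to SYNRG, was the other gene between them. DDX42 reached 92.8%, DDX18 87.0% and DDX1 85.2% of the parental value, each below both controls.

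The genes without a knockout peak kept a −log10 p above the lowest value of the knockout list (4.74) after scaling. DDX5 had 33.1 from the parental and 31.6 from the ROSA26 library. DHX34 had 19.4 and 35.7, and DDX31 had 9.88 and 15.3. The 10th percentile of the knockout list was 13.6, so the parental value of DDX31 lies below it and the others above it. DDX47 was still listed in the knockout with 16.2% of its scaled parental value. The part of depth in the 3 missing peaks was not tested. The nearest knockout summits to these 3 genes were 92760 bp away or more.

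**Figure D5:**
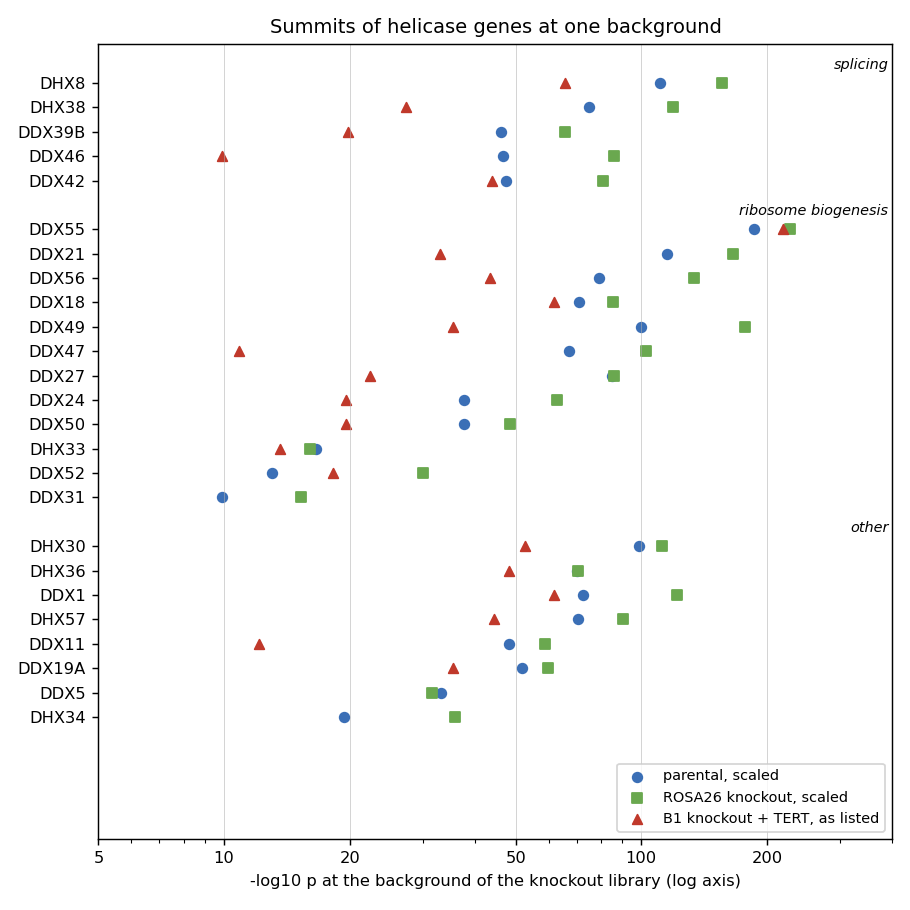
The −log10 p of the summits of the 25 helicase genes in both controls, on a log axis, with control values scaled to the background of the knockout library and knockout values as listed; a gene without a red triangle has no knockout peak. The knockout lies below both controls at 20 of the 22 genes with all 3 points, and between them at DDX55 and DDX52.

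Some other helicases and partner proteins of the family also had peaks. Of 23 RNA helicases outside the DDX and DHX names, 4 had a parental peak, 5 were in the ROSA26 list and 4 had a knockout peak. These shares were 17.4, 21.7 and 17.4%, with intervals that contain the 15.5, 18.5 and 9.31% of all genes. The 3 strongest were AQR, an intron-binding helicase of the spliceosome (folds 20.1, 21.3 and 11.6), SKIC2 of the Ski complex (15.7, 18.3 and 8.91) and SNRNP200, which unwinds snRNAs (9.12, 10.3 and 4.77). Of 21 G-patch proteins, a group that includes activators of DEAH helicases, 10 had a parental peak, and 8 of the 10 in both controls had a knockout peak. CHERP (11.4, 15.5 and 4.76), TFIP11 (10.8, 11.2 and 9.24), a partner of DHX15, and GPATCH3 (8.59, 10.4 and 4.32) were kept, and SON (5.56 and 6.64) and GPATCH4 (4.21 and 4.1995) had no knockout peak. Of 19 other partners 4 were marked in the parental list and all 4 were kept, with MAGOH (7.92), CWC22 (6.89) and ALYREF (6.12) the strongest. The parental shares were 17.4% (4.95 to 38.8), 47.6% (25.7 to 70.2) and 21.1% (6.05 to 45.6), so the interval of the G-patch list alone lies above the 15.5% of all genes. Of genes in both controls, the shares with a knockout peak were 80% (44.4 to 97.5) for the G-patch list and 100% (39.8 to 100) for each of the other lists, and these intervals contain the 60.4% of all genes.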

How the data were processed

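GABPA ChIP-seq was measured in 3 A-375 conditions with 1 ChIP and 1 input sample each. Only the ChIP lists were analysed here. Per the submitters' processing notes, Bowtie2, SAMtools and MACS2 were used with hg38. Not given in the sources used here: tool versions, thresholds, duplicate handling and whether the input was the control. The authors deposited 1 peak list per ChIP sample. The deposited lists give the fold enrichment of each peak, the −log10 of its p-value and q-value, and a score, which is the −log10 q multiplied by 10 and cut to a whole number. Coordinates are hg38, written 1-based.

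Gene spans, strands and promoter windows came from RefSeq tables of GRCh38.p14, in which 48 of 53 helicase genes had a promoter. A gene with several summits in reach takes the one with the highest −log10 p. Reads at each summit were solved from fold and −log10 p, as fold = (pileup + 1)/(background + 1) with a Poisson p-value, within 0.01 for all peaks, and the solver and the gene assignment were tested on simulated data. The commonest background was 15.4, 14.2 and 9.86 reads in the parental, ROSA26 and knockout libraries. Reads were multiplied by a scale factor solved for each library, 0.860, 1 and 0.924 in the same order, to give the pileup. Shares have exact Clopper-Pearson 95% intervals over genes, which cover counting error only. With 1 library per condition no test was made and no p-value of a comparison is given. Folds of different lists are given side by side and not compared. Each marked helicase gene is named. Of other lists, the 3 highest parental folds with and without a knockout peak are named. Promoters are printed for the 3 highest parental folds with a knockout peak in splicing and ribosome biogenesis and the 3 highest without. The members, roles and lists were chosen with earlier results of these data known. Computation used Python 3.11.15, numpy 2.4.6, scipy 1.17.1 and pandas 2.3.3.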

Additional observations from a re-analysis of the deposited data

How the results depend on the processing

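Summit limits of 500 bp or 2 kb, summits anywhere in the span, and overlap of the knockout peak with the parental peak by 1 bp or 50% of the shorter peak left 25 helicase genes in both controls and the same 22 with a knockout peak. With the top 1660 peaks of each list, 20 helicase genes had a ROSA26 peak in place of 31, and 20 of 20 in both controls had a knockout peak (100%, against 89.0% of all genes). Counting each summit for its nearest gene end gave 19 of 20 (57.9% of all genes), without DDX24, DDX49 and DDX52. Start ends alone, which only genes in the promoter table have, gave 18 of 21 (61.2%). DDX18, DDX49, DDX52 and DHX33 dropped out there because they are not in that table. Leaving out helicase genes that share a peak, a choice made after seeing the data, left 42 genes, of which 16 had a parental and 20 a ROSA26 peak. Of the 16 in both controls, 15 had a knockout peak (93.8%, against 60.4% of all genes). Other genes that share a peak stayed among all genes, so these shares are not like for like. DDX5 and DDX31, which had no knockout peak, were among the helicase genes left out. The share of promoters with the ETS word was 47.6% with CCGGAAGT (6.2% of all windows) and 100% with CGGAA, in place of 85.7%. No paired analysis was possible because each condition has 1 library. The input samples give no depth here, and sites weak in the controls are the least certain to be listed in the knockout library.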

Other observations

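Between the parental and ROSA26 lists the median distance was 8 bp over 25 helicase genes, with at most 46 bp (DDX31), and 17 bp over all 3062 genes in both lists. Between the parental and knockout lists it was 21.5 bp over 22 helicase genes and 19 bp over all 1851 genes. Between the ROSA26 and knockout lists it was 28.5 bp over 22 helicase genes and 18 bp over all 1857 genes. The largest distances to the knockout summit were at DHX30, 128 bp from the parental and 147 bp from the ROSA26 summit. The parental summit of DHX30 was 142 bp from the ETS word in its promoter and the knockout summit 14 bp, a difference seen in 1 library and not tested.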
